A study of Mus musculus with 6 samples.

Results

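The respiratory chain genes of the mouse small-intestinal epithelium were examined as 109 genes, chosen by symbol alone from the 27998 genes of the matrices. Taken were symbols beginning with Nduf, Uqcr or Atp5, with Sdha to Sdhd, or with Cox4 to Cox8, and the protein genes of the mitochondrial genome, whose symbols begin with mt-. Names containing -ps would have been left out, of which there were 0. The rule gave 96 nuclear and 13 mitochondrially encoded genes. Among the nuclear genes, 74 encode subunits (36 of complex I, 4 of complex II, 8 of complex III, 11 of complex IV and 15 of the ATP synthase, complex V). A further 12 encode assembly factors, which help to build the complexes without staying in them, and 8 encode alternative isoforms known mainly from other tissues or conditions. The 2 that remain, Atp5s and Cox7a2l, were kept apart from these kinds. Of the mitochondrially encoded genes, 7 belong to complex I, 1 to complex III, 3 to complex IV and 2 to complex V.

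Epithelial cells of the small intestine were profiled with droplet-based 3' RNA sequencing, in which each captured RNA molecule carries a unique molecular identifier (UMI). All mice were C57BL/6J and 8 weeks old. Wild-type mice gave 3 libraries, and mice of the genotype Itgb7-/-, which lack the β7 integrin subunit of gut-homing and intraepithelial T cells, gave the other 3. The labels do not say whether a library came from 1 animal or from several, so a p-value here reflects the spread among the 6 libraries, part of which may be technical.

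The respiratory chain passes electrons from NADH through complexes I, III and IV, and from succinate through complex II, to oxygen, and the proton gradient this builds drives the ATP synthase. Complexes I, III, IV and V are assembled from proteins of both genomes, while complex II is encoded by nuclear genes alone. In the gut, proliferating crypt cells give rise to absorptive enterocytes, which carry a high energy demand for nutrient transport, and to the secretory goblet, Paneth and enteroendocrine cells.

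Before any result, the libraries were compared. The 6 libraries held 26153 barcodes and between 28475253 and 76133693 UMIs, with median depths of 22384, 11920.5 and 12103 UMIs per barcode in wild-type replicates 1, 2 and 3 and 19529, 9284 and 6079.5 in the libraries labelled Itgb7 KO. Replicate 1 of both genotypes had fewer and deeper barcodes than the others, with a smallest total of 13621 and 7754 UMIs, and replicate 3 labelled Itgb7 KO was the shallowest. Pairs of libraries shared 12 to 42 barcodes, at most 1.05% of the smaller library. Itgb7 itself was counted with 3, 8 and 2 UMIs in wild-type replicates and with 18, 33 and 12 UMIs where the label is Itgb7 KO. A 3' tag can lie outside a deleted part and the labels do not say which part was deleted, so these UMIs do not check the genotype, and the group is called here by its label. Genes of RNA quality and of other cell types also differed between libraries. The 3 nuclear-retained RNAs (Malat1, Neat1, Kcnq1ot1) summed to 3303 to 4251 CPM in wild-type and 3654 to 6595 CPM in Itgb7 KO libraries, and the 97 cytosolic ribosomal protein genes to 221753 to 248833 and 191702 to 228456 CPM. T cell markers stayed at or below 2.78 CPM in every library. A list of myeloid markers, which includes Cd74, also made by gut epithelium, summed to 54.7 to 259 CPM against 559 to 585 CPM, and 1 gene of it was at 0 in all libraries. The part of these differences in the results below was not tested.

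After filters and removal of likely doublets, 25076 cells remained in 25 clusters, which were made without the respiratory chain genes. Clusters were called stem-like (2498 cells), transit-amplifying-like (3498), lower-villus enterocyte-like (5267), mature enterocyte-like (3004), goblet-like (3276), Paneth-like (243), enteroendocrine-like (591) and tuft-like (105) from lists of marker genes, and 6594 cells in 7 clusters stayed unnamed. Levels are UMIs of a gene scaled to 1000000 UMIs of the class (CPM), or percent of its UMIs. Because a 3' tag gives about 1 UMI per captured molecule at the end of a transcript, levels are set side by side between cell classes and libraries, and a higher count of one gene than of another is not read as more transcript. Class differences are descriptions with no test, since the classes were found in the same cells.

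As shares of UMIs, nuclear and mitochondrially encoded transcripts of the respiratory chain were both highest in the enterocyte classes and lowest in Paneth-like cells. The 96 nuclear genes made up 5.78% ± 0.07 (SD, n = 6 libraries) of the UMIs of stem-like cells, 6.26% ± 0.21 of transit-amplifying-like cells, 8.38% ± 0.17 of lower-villus enterocyte-like cells and 7.88% ± 0.21 of mature enterocyte-like cells. Goblet-like cells stood at 3.83% ± 0.28, enteroendocrine-like cells at 4.49% ± 0.73 and Paneth-like cells at 1.90% ± 0.47 (n = 5 libraries with at least 20 such cells). Replicate 1 of both genotypes stood apart in enteroendocrine-like cells (5.72% in wild-type and 5.09% in Itgb7 KO), above every other library. Its Paneth-like sums (1.42% and 1.38%) were below every other. No barcode of wild-type replicate 1 had under 13621 UMIs, while the enteroendocrine-like clusters had median depths of 5045 and 5283 UMIs. In that library the enteroendocrine-like nuclear sum lay only -0.004 (log2) from stem-like cells. The part of depth was not tested. All 6 libraries had a higher nuclear sum in both enterocyte classes and a lower one in goblet-like cells than in their own stem-like cells. The 13 mitochondrially encoded genes were also highest in the enterocyte classes, with a wider spread between libraries, from 4.20% ± 0.53 (stem-like) and 4.16% ± 0.53 (transit-amplifying-like) to 5.02% ± 0.61 in lower-villus and 5.29% ± 0.62 in mature enterocyte-like cells. Their sum was 2.88% ± 0.34 in goblet-like, 3.16% ± 0.73 in enteroendocrine-like and 1.16% ± 0.28 in Paneth-like cells. Replicate 1 of wild-type and Itgb7 KO was again highest in enteroendocrine-like cells (4.11% and 4.03%) and lowest in Paneth-like cells (0.86% and 0.92%).

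**Figure D1:**
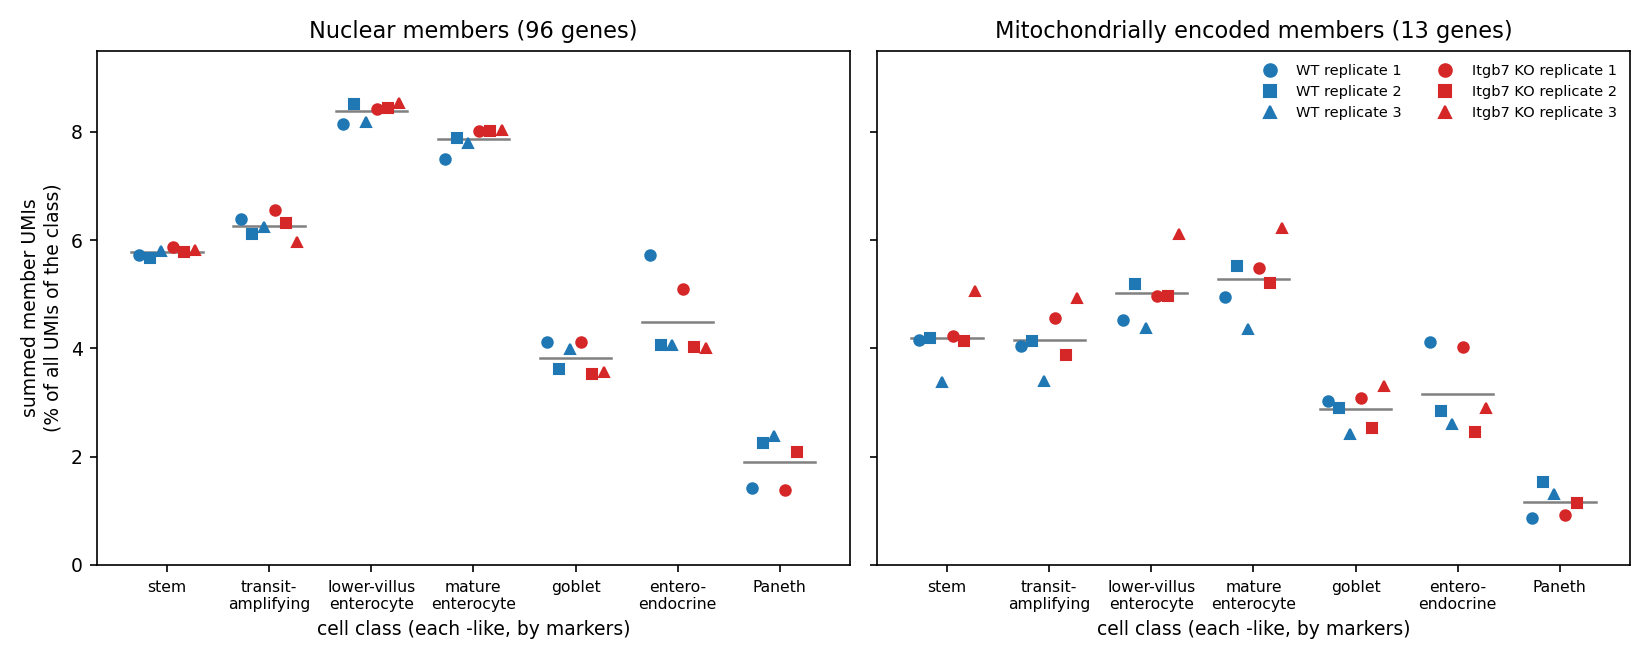
Percent of all UMIs of a cell class (vertical axis) taken by the 96 nuclear genes (left) and the 13 mitochondrially encoded genes (right), for 7 classes (horizontal axis); each symbol is 1 library and grey bars are means. The means of the enterocyte classes lie above that of stem-like cells and those of the secretory classes below it in both panels, and replicate 3 labelled Itgb7 KO has the highest mitochondrially encoded share in both enterocyte classes and in goblet-like, transit-amplifying-like and stem-like cells.

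Measured within each library against its own stem-like cells, the nuclear sum was higher in lower-villus enterocyte-like cells by 0.54 ± 0.03 (log2, SD, n = 6) and in mature enterocyte-like cells by 0.45 ± 0.03. The mitochondrially encoded sum was higher by 0.26 ± 0.08 and 0.34 ± 0.06. As class means, the nuclear genes thus exceeded the mitochondrially encoded ones more in lower-villus than in mature enterocyte-like cells. Expressed as the log2 ratio of nuclear to mitochondrially encoded UMIs, lower-villus enterocyte-like cells lay 0.28 ± 0.08 above stem-like cells, transit-amplifying-like cells 0.13 ± 0.07 and mature enterocyte-like cells 0.11 ± 0.05, each in 6 of 6 libraries. Paneth-like cells lay 0.19 ± 0.13 above stem-like cells, in 5 of 5 libraries, so a higher ratio was not confined to proliferating and absorptive classes. In goblet-like cells the ratio was lower in 6 of 6 libraries (-0.06 ± 0.04). The enteroendocrine-like ratio exceeded that of stem-like cells in 4 of 6 libraries.

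The classes were not uniform. Of the mature enterocyte-like cells, 1745 in a cluster led by Fabp6, a bile acid binding protein of the distal intestine, had 7.33% ± 0.20 nuclear and 4.87% ± 0.66 mitochondrially encoded UMIs, and 1259 in a cluster led by Apoa1, an apolipoprotein of lipid absorption, had 8.55% ± 0.22 and 5.82% ± 0.65 (SD, n = 6). The log2 ratio of nuclear to mitochondrially encoded UMIs was 0.60 ± 0.17 and 0.56 ± 0.15 in these mature clusters. In the lower-villus enterocyte-like clusters it was 0.89 ± 0.19, 0.78 ± 0.12, 0.70 ± 0.13, 0.69 ± 0.21 and 0.62 ± 0.12. Some lower-villus clusters thus lay close to the mature ones in this ratio. The stem-like clusters stood at 6.10% ± 0.08 and 5.32% ± 0.09 nuclear UMIs. The transit-amplifying-like clusters stood at 6.68% ± 0.17 (2214 cells) and 5.49% ± 0.19 (1284 cells). The latter had the stem markers Ascl2 and Lgr5 among its 10 leading genes and lay below the higher stem-like cluster. The transit-amplifying-like values are thus a mean over unlike clusters. An unnamed cluster of 444 cells had 12.3% ± 2.00 mitochondrially encoded UMIs (n = 5) beside 6.12% ± 0.39 nuclear ones, and its median depth of 3478.5 UMIs was the lowest of the 25 clusters. Among all kept cells of a library, the nuclear and mitochondrially encoded shares of a cell correlated (Spearman's rho across 2711 to 5468 cells, 0.45 to 0.60). Within stem-like cells, rho was -0.13 to 0.10 over 228 to 561 cells. Both shares of a cell use the same UMI total, and cells of a library are not independent replicates, so no test was made.

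The higher level in enterocyte-like cells extended over nearly all structural subunits. All 74 nuclear subunit genes had a mean of at least 50 CPM, and 68 of them were higher in mature enterocyte-like than in stem-like cells in all 6 libraries, with 1 lower. Among the 2578 other genes at that level, 40.1% were higher in every library and 44.8% lower. The median difference was 0.45 on the log2 scale for the subunits and -0.03 for the other genes. In lower-villus enterocyte-like cells 71 of 74 subunits were higher and 1 lower, beside 42.1% and 42.6% of the other genes. In transit-amplifying-like cells 41 were higher and 3 lower, beside 38.3% and 22.1%, and with the median of the other genes set to 0 (a shift of 0.06) 26 were higher and 5 lower (35.1% and 6.76%), beside 30.76% and 29.98% of the other genes.

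In secretory classes most subunits were lower than in stem-like cells, as were many other genes. In goblet-like cells 71 of the 74 subunits were lower than in stem-like cells in every library and 2 (Ndufa1 and Ndufv3, both of complex I) were higher, with a median of -0.64. Among the other genes 60.9% were lower and 26.2% higher there, with a median of -0.39. Relative to that shift 52 subunits were lower and 8 higher (70.3% and 10.8%), beside 40.4% and 41.1% of the other genes. Paneth-like cells, with a median of 53957 UMIs per cell, had 73 of 74 subunits and 82.2% of the other genes lower. Relative to the shift of -1.60 in the other genes, 28 subunits were lower and 8 higher (37.8% and 10.8%), beside 28.4% and 29.5% of the other genes, and the median of the subunits was -0.09. In enteroendocrine-like cells 34 were lower and 4 higher (45.9% and 5.41%), beside 34.1% and 23.7% of the other genes. Relative to the shift of -0.10 in the other genes, 29 and 6 were (39.2% and 8.11%), beside 28.8% and 28.0%. From such proportions alone, fewer transcripts per cell and a larger share of other transcripts cannot be told apart. The median of 53957 UMIs in Paneth-like cells stood beside 10728 and 8725.5 UMIs in the stem-like clusters. A lower share in Paneth-like cells is thus not by itself a lower count per cell. Of the 243 Paneth-like cells, 96 and 71 came from the deeper replicate 1 libraries of wild-type and Itgb7 KO. The part of depth was not tested.

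Complex II, which oxidises succinate in the citrate cycle as well, differed most between classes among the nuclear sums of the 5 complexes. Its 4 subunits summed to 1439 ± 147 CPM in stem-like, 2276 ± 235 CPM in lower-villus, 2077 ± 222 CPM in mature enterocyte-like and 802 ± 40.2 CPM in goblet-like cells (SD, n = 6). This corresponds to log2 differences from stem-like cells of 0.66 ± 0.04, 0.53 ± 0.02 and -0.84 ± 0.12. Within the complex, Sdhb, its iron-sulfur subunit, was higher in mature enterocyte-like cells by 0.69 ± 0.02 and Sdhd, a membrane anchor, by 0.67 ± 0.05. Sdha, the flavoprotein that binds succinate, was higher by only 0.17 ± 0.04, although in 6 of 6 libraries. The nuclear sums of the other complexes were higher in mature enterocyte-like cells by 0.41 ± 0.04 (complex I), 0.46 ± 0.05 (complex III), 0.51 ± 0.04 (complex IV) and 0.41 ± 0.03 (complex V).

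Single subunits spread from -0.22 to 0.89 around those sums. Apart from the isoform Cox7a1, the 4 highest differences between mature enterocyte-like and stem-like cells belonged to Ndufv3, Ndufb10, Cox5a and Ndufb7. Ndufv3, a small subunit of the NADH-binding arm of complex I, measured 329.5, 339 and 349 CPM in wild-type stem-like cells and 316, 339 and 358 CPM in Itgb7 KO ones, against 570.5, 631 and 661 CPM and 617, 644 and 639 CPM in mature enterocyte-like cells. The 2 classes did not overlap, and the log2 difference was 0.89 ± 0.06 (SD, n = 6). Ndufb10, a membrane-arm subunit, measured 360.4, 354 and 366 CPM in wild-type stem-like cells and 367, 368 and 379 CPM in Itgb7 KO ones, against 619.8, 675 and 642 CPM and 659, 741 and 709.6 CPM in mature enterocyte-like cells. Its difference was 0.88 ± 0.08, again without overlap. Cox5a, a subunit on the matrix side of complex IV, measured 1299, 1005 and 1170.2 CPM in wild-type stem-like cells and 1355, 908 and 873 CPM in Itgb7 KO ones, against 2158, 1747 and 1852 CPM and 2335, 1637 and 1615 CPM in mature enterocyte-like cells. Cox5a was higher in replicate 1 of both genotypes than in the other libraries in both classes, and was higher in mature enterocyte-like cells within each library, by 0.79 ± 0.08. Ndufb7, on the intermembrane side of complex I, measured 339, 352 and 358 CPM in wild-type stem-like cells and 334, 389.9 and 391 CPM in Itgb7 KO ones, against 532, 627 and 607 CPM and 568, 675 and 673 CPM in mature enterocyte-like cells. All its mature values exceeded all its stem-like values, with a difference of 0.76 ± 0.06.

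At the other end stood Atp5g2, Ndufa7 and Uqcrc2 among the subunits. Atp5g1, Atp5g2 and Atp5g3 encode the same mature c subunit of the ATP synthase rotor with different import sequences. Atp5g2 measured 979.6, 894 and 1059.7 CPM in wild-type stem-like cells and 981, 797 and 795 CPM in Itgb7 KO ones, against 771, 811 and 961 CPM and 837, 658 and 702 CPM in mature enterocyte-like cells. It was lower in mature enterocyte-like cells in 6 of 6 libraries (-0.22 ± 0.08), although the ranges of the 2 classes overlap. Atp5g1 and Atp5g3 were higher in 6 of 6 libraries, by 0.45 ± 0.07 and 0.66 ± 0.08, so the 3 genes for 1 protein did not move together. Atp5g3 measured 659, 634 and 711 CPM in wild-type stem-like cells and 694, 554 and 650.2 CPM in Itgb7 KO ones, against 988, 1041 and 1083 CPM and 1030.1, 913 and 1086 CPM in mature enterocyte-like cells. Atp5g1 measured 1488, 1573 and 1732 CPM in wild-type stem-like cells and 1629, 1586 and 1521 CPM in Itgb7 KO ones, against 1946, 2231 and 2401 CPM and 2103, 2135 and 2218 CPM in mature enterocyte-like cells. Neither of these genes overlapped between the classes. Ndufa7, an accessory subunit of complex I, measured 449, 477 and 441 CPM in wild-type stem-like cells and 440.3, 526 and 621 CPM in Itgb7 KO ones, against 411, 480.1 and 443 CPM and 418, 506 and 551 CPM in mature enterocyte-like cells. Its values overlapped and it was higher in 2 of 6 libraries, as was Uqcrc2, a core protein of complex III (-0.01 ± 0.10).

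The 12 assembly factors taken by the symbol rule did not follow the subunits. All 12 had a mean of at least 10 CPM, and 8 of them were lower in mature enterocyte-like than in stem-like cells in every library while 2 were higher, with a median of -0.37. Among 7084 other genes with a mean of at least 10 CPM, 43.2% were lower and 34.1% higher in every library. Of 33 assembly factors outside the rule at that level, 16 were higher and 11 lower in every library, with a median of 0.18. The lean to lower levels was therefore not common to assembly factors in general. Ndufaf4, which acts early in the assembly of complex I, measured 86.8, 91.9 and 103 CPM in wild-type stem-like cells and 86.0, 108 and 101.04 CPM in Itgb7 KO ones, against 55.5, 69.1 and 65.8 CPM and 55.6, 69.5 and 70.7 CPM in mature enterocyte-like cells. The classes did not overlap (-0.58 ± 0.10). Ndufaf2, a late assembly factor of complex I, measured 70.0, 83.6 and 80.8 CPM in wild-type stem-like cells and 81.9, 103 and 107 CPM in Itgb7 KO ones, against 43.6, 60.5 and 59.3 CPM and 50.7, 70.4 and 70.4 CPM in mature enterocyte-like cells. The difference was -0.57 ± 0.11, lower in 6 of 6 libraries, with 2 mature values (both 70.4 CPM) above the lowest stem-like value. The 2 that were higher in every library were Sdhaf4 (0.22 ± 0.15), which takes part in the maturation of complex II, and Atp5sl (0.15 ± 0.07). Ndufaf7 (-0.70 ± 0.18), a methyltransferase for a complex I subunit, was also lower in 6 of 6 libraries. In goblet-like cells 11 of the 12 were lower, or 9 relative to the shift of the other genes. Cox7a2l, known as a supercomplex assembly factor that links complexes III and IV, measured 634, 598 and 613 CPM in wild-type stem-like cells and 592, 533 and 509 CPM in Itgb7 KO ones, against 537, 535 and 572 CPM and 523, 443 and 421 CPM in mature enterocyte-like cells. It was lower in mature enterocyte-like cells in 6 of 6 libraries (-0.20 ± 0.07), with overlapping ranges.

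**Figure D2:**
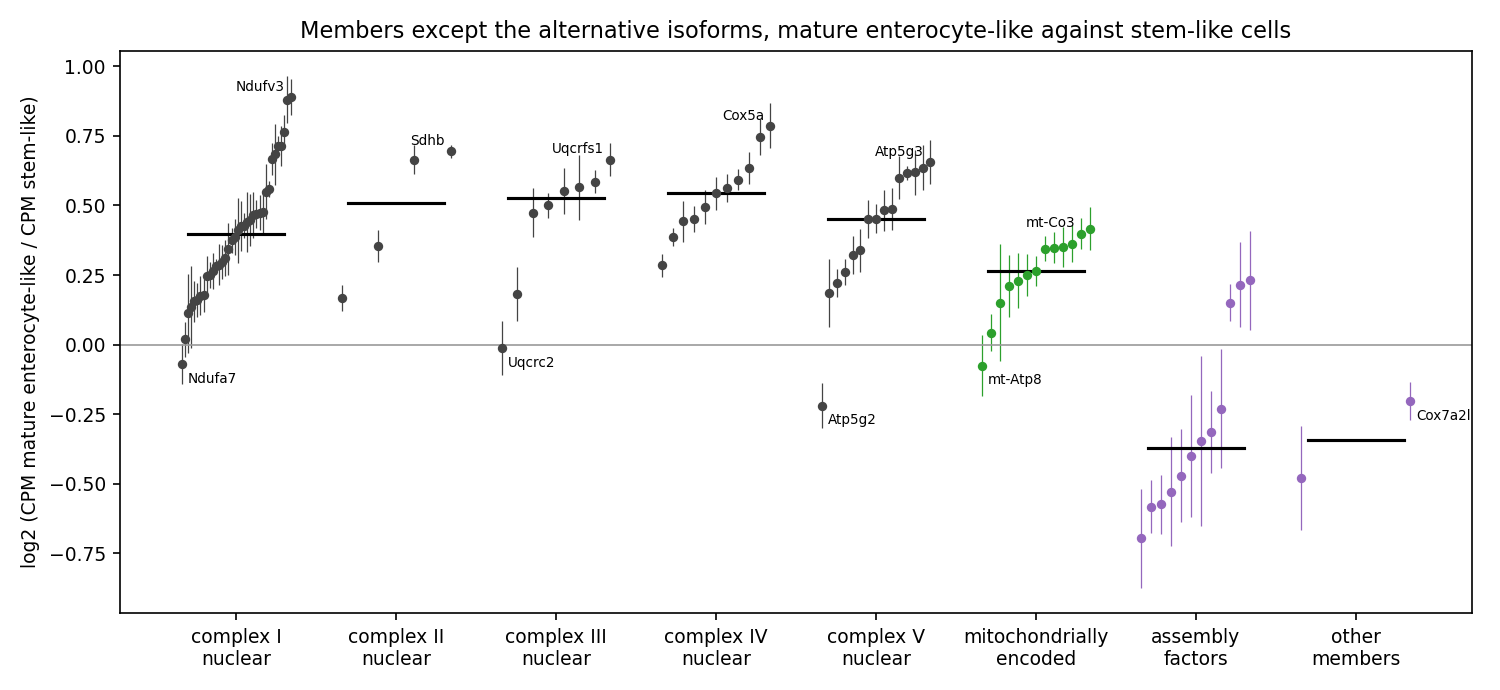
Log2 ratio of CPM in mature enterocyte-like over stem-like cells (vertical axis) for each gene outside the alternative isoforms, grouped by complex, genome and role (horizontal axis) and sorted within a group; points and lines are mean and SD over 6 libraries and black bars are group medians. Nearly all subunits lie above 0, with Atp5g2 the lowest nuclear subunit at -0.22, while 9 of 12 assembly factors lie below 0.

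Alternative isoforms gave the widest differences. Cox7a1, the isoform of subunit VIIa of complex IV known from heart and skeletal muscle (ENSMUSG00000074218, chr7:30184144-30186078, plus strand, GRCm38, with no other annotated gene overlapping it), measured 26.5, 23.3 and 34.9 CPM in wild-type stem-like cells and 23.1, 25.9 and 18.4 CPM in Itgb7 KO ones, against 386, 486 and 399.8 CPM and 385, 576 and 548 CPM in mature enterocyte-like cells. The class ranges were far apart, and the difference was 4.20 ± 0.49 on the log2 scale (SD, n = 6). Mean Cox7a1 levels were 25.3 CPM in stem-like, 65.5 CPM in transit-amplifying-like, 393 CPM in lower-villus and 464 CPM in mature enterocyte-like cells, and 61.2, 53.8 and 39.7 CPM in goblet-like, enteroendocrine-like and Paneth-like cells. Its counterpart Cox7a2, the widely expressed form of the same subunit, measured 1103, 969 and 1135 CPM in wild-type stem-like cells and 1149, 948 and 978 CPM in Itgb7 KO ones, against 1759.8, 1660.4 and 1818 CPM and 1889, 1653 and 1732 CPM in mature enterocyte-like cells. It was higher by 0.75 ± 0.06, without overlap and by much less than Cox7a1.

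The reverse held for Cox6b2, the isoform of subunit VIb known from testis (ENSMUSG00000051811, chr7:4751792-4753094, minus strand, GRCm38, with no overlapping gene). Cox6b2 measured 26.5, 41.6 and 34.2 CPM in wild-type stem-like cells and 25.7, 34.2 and 36.8 CPM in Itgb7 KO ones, against 2.21, 5.04 and 6.88 CPM and 3.97, 4.02 and 4.75 CPM in mature enterocyte-like cells. Every stem-like value exceeded every mature one, with a difference of -2.95 ± 0.42. Transit-amplifying-like cells held 18.7 CPM and goblet-like cells 3.79 CPM. Cox6b1, the widely expressed form, measured 1369.6, 1540.2 and 1491 CPM in wild-type stem-like cells and 1359, 1591 and 1741 CPM in Itgb7 KO ones, against 1989, 2378 and 2203 CPM and 2109, 2435 and 2604 CPM in mature enterocyte-like cells. It was higher in mature enterocyte-like cells in 6 of 6 libraries (0.59 ± 0.04), so the forms of this subunit went in opposite directions.

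The other 6 isoforms were at or near 0. In 332900715 UMIs of kept cells, Cox8b and Cox8c gave 0 UMIs, which allows up to 0.00901 CPM for each (3 counts of the total, counting error only). Cox7b2 gave 1 UMI, Ndufa4l2, known from low-oxygen responses, 9, Cox4i2, the isoform of lung, 52, and Cox6a2, that of heart and muscle, 125. Their widely expressed counterparts Cox8a, Cox7b, Ndufa4, Cox4i1 and Cox6a1 were all higher in mature enterocyte-like than in stem-like cells in 6 of 6 libraries, by 0.44 ± 0.07, 0.54 ± 0.06, 0.45 ± 0.05, 0.39 ± 0.03 and 0.64 ± 0.06.

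**Figure D3:**
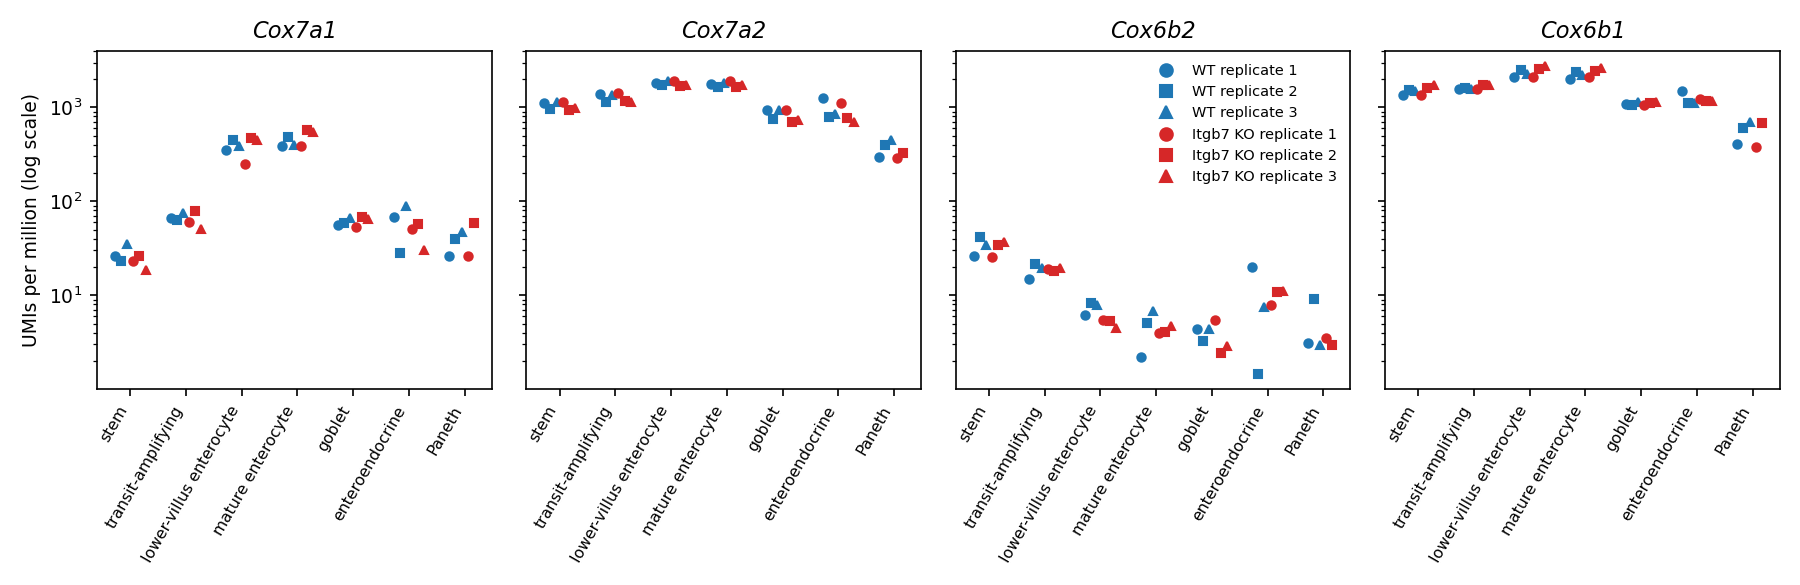
CPM on a log scale (vertical axis) of Cox7a1, Cox7a2, Cox6b2 and Cox6b1 in 7 cell classes (horizontal axis); each symbol is 1 library. Cox7a1 climbs from a mean of 25.3 CPM in stem-like to 464 CPM in mature enterocyte-like cells while Cox6b2 descends from 33.1 to 4.48 CPM, and their widely expressed counterparts climb by less than 1 on the log2 scale.

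Promoter sequence was available from RefSeq (GRCm38.p6) for 80 of the 96 nuclear genes and was searched on both strands, over 250 bases before and 50 after the start, for the core motifs of 4 factors known for nuclear respiratory genes. The letters were GCATGCGC for NRF1, CCGGAAGT for GABP, TCAAGGTCA for the estrogen-related receptors and AAGATGGCG for YY1. A motif of NRF1 stood in 12 of 80 genes (15%) against 3.94% of 17492 protein-coding genes, and one of YY1 in 8 (10.0%) against 2.14%. The receptor motif stood in 2 (2.5%) against 0.38%, and that of GABP in 5 (6.25%) against 5.69%. Any of the 4 stood in 26 genes (32.5%) against 11.4%. These are counts of letters, not of binding, and no match says only that these letters are not in the window. Among nuclear genes with a mean of at least 50 CPM and a promoter, the median difference of mature enterocyte-like over stem-like cells was 0.58 for 10 with the NRF1 motif, with a range of -0.22 to 0.71, and 0.45 for 53 without it (-0.07 to 0.89). The medians with and without the other motifs were 0.44 and 0.46 for GABP (5 genes with it), 0.66 and 0.45 for the receptors (2 genes), 0.47 and 0.45 for YY1 (7 genes), and 0.48 and 0.44 for any of the 4 (23 genes).

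The 250 bases before the start are given for 5 genes that moved differently between stem-like and mature enterocyte-like cells, 5′ to 3′ on the gene's strand, with a motif in capitals. Ndufa11 (chr17:56717512-56717761, plus strand), an accessory subunit higher in mature enterocyte-like cells by 0.67 ± 0.06, holds the NRF1 core on both strands, overlapping, from 60 and 58 bases before the start. Atp5g3 (chr2:73911327-73911576, minus strand), higher by 0.66 ± 0.08, holds the receptor motif on the minus strand 52 bases before the start. Ndufaf4 (chr4:24897833-24898082, plus strand), with a difference of -0.58 ± 0.10, also holds the NRF1 core on both strands, from 113 and 111 bases before the start, with a further match after the start that is not shown. Cox7a1 (chr7:30183921-30184170, plus strand) and Cox6b2 (chr7:4753095-4753344, minus strand) hold none of the 4 motifs. They had the largest differences in either direction among the respiratory chain genes with at least 10 CPM.
Ndufa11: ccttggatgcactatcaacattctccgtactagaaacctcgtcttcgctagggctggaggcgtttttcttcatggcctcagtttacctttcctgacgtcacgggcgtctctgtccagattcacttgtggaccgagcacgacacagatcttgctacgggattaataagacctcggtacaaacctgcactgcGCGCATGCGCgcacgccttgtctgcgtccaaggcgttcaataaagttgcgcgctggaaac
Atp5g3: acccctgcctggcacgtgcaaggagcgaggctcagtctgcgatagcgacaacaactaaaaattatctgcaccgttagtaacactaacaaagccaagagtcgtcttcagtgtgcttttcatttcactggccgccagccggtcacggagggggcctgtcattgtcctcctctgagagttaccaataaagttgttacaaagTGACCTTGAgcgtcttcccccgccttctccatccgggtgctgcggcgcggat
Ndufaf4: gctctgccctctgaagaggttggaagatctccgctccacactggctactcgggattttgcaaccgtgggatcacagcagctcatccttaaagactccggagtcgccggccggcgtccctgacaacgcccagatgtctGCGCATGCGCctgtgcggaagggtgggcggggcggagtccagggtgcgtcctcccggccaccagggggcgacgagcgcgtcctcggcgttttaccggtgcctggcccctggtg
Cox7a1: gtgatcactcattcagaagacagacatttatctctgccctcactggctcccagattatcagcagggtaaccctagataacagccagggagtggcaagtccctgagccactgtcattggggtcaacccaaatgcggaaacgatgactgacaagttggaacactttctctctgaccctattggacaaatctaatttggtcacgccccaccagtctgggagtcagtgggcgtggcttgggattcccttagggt
Cox6b2: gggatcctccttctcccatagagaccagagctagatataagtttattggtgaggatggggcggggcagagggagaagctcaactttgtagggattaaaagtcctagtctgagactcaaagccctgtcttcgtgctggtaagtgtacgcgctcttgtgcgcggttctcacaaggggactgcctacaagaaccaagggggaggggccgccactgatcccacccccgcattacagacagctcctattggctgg
The same 10 capital letters of the NRF1 core and its reverse complement thus stand before a gene that was higher and a gene that was lower in mature enterocyte-like cells.

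Among the mitochondrially encoded genes with a mean of at least 50 CPM, 9 of 12 were higher in mature enterocyte-like than in stem-like cells in every library and 0 lower. In goblet-like cells all 12 were lower, or 11 relative to the shift of the other genes. The differences in mature cells ran from -0.08 ± 0.11 for mt-Atp8 to 0.42 ± 0.08 for mt-Nd3. The exceptions in mature cells were mt-Atp8, mt-Nd4l (0.04 ± 0.07) and mt-Nd5 (0.21 ± 0.11). On the annotated mitochondrial genome mt-Atp8 overlaps mt-Atp6 and mt-Nd4l overlaps mt-Nd4 on the same strand, and each pair is known to share 1 mRNA, so a 3' tag cannot tell the pair apart. In goblet-like cells mt-Co1, a catalytic subunit of complex IV, stood apart, at -0.06 ± 0.03 against -0.53 ± 0.15 for mt-Co3 and -0.63 ± 0.13 for mt-Co2 of the same complex.

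Genes that act beside the respiratory chain differed in both directions between stem-like and mature enterocyte-like cells. Their counts are to be read beside the 34.1% of 7084 other genes with at least 10 CPM that were higher in every library and the 43.2% that were lower. Of 13 citrate cycle genes 8 were higher in every library and 2 lower, with Ogdh (1.34 ± 0.19) and Mdh2 (1.32 ± 0.15) among the higher ones and Fh1 (-0.27 ± 0.09) among the lower. Of 23 genes for carriers and coenzyme Q 11 were higher and 5 lower, including cytochrome c (Cycs, 0.97 ± 0.12) and complex III's cytochrome c1 (Cyc1, 0.47 ± 0.07), which the symbol rule does not take. Of 33 other assembly factors with at least 10 CPM 16 were higher and 11 lower. All 3 ATP synthase parts outside the rule, Usmg5, Atpif1 and 2010107E04Rik, were higher (0.72 ± 0.11, 0.45 ± 0.08 and 0.45 ± 0.06). Of 13 glycolytic genes 10 were higher and 2 lower.

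Genes that copy and transcribe the mitochondrial genome were mostly lower in mature enterocyte-like cells. Of 12 such genes with at least 10 CPM, 10 were lower in mature enterocyte-like cells in every library and 1, Polg2, was higher (0.69 ± 0.21). Tfam, which packages mitochondrial DNA and starts its transcription, averaged 119 CPM in stem-like and 42.3 CPM in mature enterocyte-like cells, a difference of -1.49 ± 0.11. Tfb2m, a transcription initiation factor, differed by -1.12 ± 0.22 and Ssbp1, which binds single-stranded mitochondrial DNA, by -1.31 ± 0.06. Of 76 mitochondrial ribosomal protein genes 49 were lower and 11 higher. Of 10 regulators of nuclear subunit genes 4 were higher in every library and 5 lower, shares near those of all other genes. Ppargc1a (2.37 ± 0.36), a coactivator, and the receptors Esrra (1.27 ± 0.13) and Ppard (1.26 ± 0.20) were higher in 6 of 6 libraries, whereas Nrf1 (-0.97 ± 0.26), Gabpb1 (-1.16 ± 0.15) and Yy1 (-0.43 ± 0.10) were lower in 6 of 6.

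Between genotypes, the summed levels of all kept cells overlapped. In these cells the nuclear genes took 5.54, 6.38 and 6.49% of UMIs in wild-type replicates 1, 2 and 3 and 5.89, 6.70 and 6.61% in the libraries labelled Itgb7 KO. The groups overlap, with a log2 difference of Itgb7 KO over wild-type of 0.06 ± 0.09 (SE; exact 2-sided permutation test, p = 0.5, adjusted p = 0.571 over 8 cell groups), and -0.009 without wild-type replicate 1. The mitochondrially encoded genes took 3.57, 4.30 and 3.63% and 4.03, 4.23 and 5.25%. Replicate 3 labelled Itgb7 KO was the highest of all 6, and the difference was 0.23 ± 0.14 (exact 2-sided permutation test, p = 0.3, adjusted p = 0.48). Sums over all kept cells also carry the mix of cell classes in a library. With the classes weighted equally the nuclear difference was 0.008 and the mitochondrially encoded one 0.16. Within a class, the mitochondrially encoded difference was 0.19 in mature and 0.18 in lower-villus enterocyte-like cells, 0.21 in transit-amplifying-like cells and 0.20 in stem-like cells. It was smaller in goblet-like cells (0.09) and went the other way in enteroendocrine-like (-0.03) and Paneth-like cells (-0.22). Paired by replicate number, the nuclear sum was higher in the library labelled Itgb7 KO in 3 of 3 pairs in all kept, stem-like and mature enterocyte-like cells, and lower in 3 of 3 in goblet-like cells (exact 2-sided sign-flip permutation test, p = 0.25, the smallest that 3 pairs can give). The sum was also lower in 3 of 3 in enteroendocrine-like cells, and in each Paneth-like pair with enough cells. In goblet-like cells the replicate 1 pair was a near-tie, at 4.13% in wild-type and 4.12% in Itgb7 KO (log2 difference -0.003). For replicates 2 and 3 this pairing rests on the numbers alone, since correlation across genes did not set them apart as pairs.

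The ratio of nuclear to mitochondrially encoded UMIs in all kept cells was 1.55, 1.48 and 1.79 in wild-type replicates and 1.46, 1.58 and 1.26 in the libraries labelled Itgb7 KO. The groups overlap, and the log2 difference was -0.17 ± 0.13 (SE; exact 2-sided permutation test, p = 0.4, adjusted p = 0.8 over 8 cell groups). The lowest ratio, in replicate 3 labelled Itgb7 KO, recurred in its stem-like (1.15), transit-amplifying-like (1.21), lower-villus (1.40), mature enterocyte-like (1.29) and goblet-like cells (1.08). That library was also the shallowest and held 76 of the 107 barcodes with over 25% mitochondrial UMIs, and the part of depth and RNA quality in its ratio was not tested. Without it the difference in all kept cells was -0.07. Within the pair of replicate 1 libraries the difference was -0.09 in all kept cells and 0.01 in stem-like cells. Within the other 4 libraries it was -0.20 and -0.27.

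By class, mature enterocyte-like cells alone had nuclear sums, as a share of all UMIs, whose groups did not overlap; wild-type libraries held 7.49, 7.89 and 7.79% and libraries labelled Itgb7 KO 8.02, 8.03 and 8.04%. The groups did not overlap, by a step of 0.06 ± 0.02 (log2, SE), and p = 0.1 is the smallest that an exact 2-sided permutation test of 3 against 3 libraries can give (adjusted p = 0.571). With only cells of at least 13621 UMIs the difference was -0.003 (8720 cells of all classes remained, with too few mature enterocyte-like cells in replicate 3 labelled Itgb7 KO). In stem-like cells the nuclear sum was 5.73, 5.68 and 5.80% in wild-type and 5.87, 5.78 and 5.82% in Itgb7 KO libraries, with a difference of 0.02 ± 0.01 (exact 2-sided permutation test, p = 0.2, adjusted p = 0.571). As a share of nuclear UMIs alone, the groups separated in stem-like cells too (0.03 ± 0.01, exact 2-sided permutation test, p = 0.1, adjusted p = 0.4). No class passed the adjusted threshold for either sum or the ratio, and the design could not have reached it. The step in the ratio from stem-like to mature enterocyte-like cells was 0.14, 0.08 and 0.06 (log2) in wild-type and 0.08, 0.14 and 0.17 in Itgb7 KO libraries, and the groups overlap (exact 2-sided permutation test of the difference, p = 0.3).

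The 5 complexes showed no separation of the genotypes in all kept cells, with nuclear and mitochondrially encoded subunits taken apart. The widest contrast was that of the mitochondrially encoded apocytochrome b of complex III (mt-Cytb), 0.35 ± 0.33 (log2, SE), followed by the 3 mitochondrially encoded subunits of complex IV, 0.28 ± 0.18, and complex II, 0.22 ± 0.18. The groups of every sum overlapped (exact 2-sided permutation tests, p = 0.2 to 0.8, adjusted p = 0.675 to 0.8 over 9 sums).

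For single genes, edgeR's quasi-likelihood test was fitted over all genes of a class. In all kept cells 105 of the 109 genes passed the filter on low counts and 0 were called at a Benjamini-Hochberg adjusted p of 0.05, as 1 of 13556 genes tested was (0.00738%). DESeq2 also called 0. At an unadjusted p of 0.05 the edgeR count was 0 of the 105, beside 420 of all genes. Log2 fold changes of Itgb7 KO over wild-type had a median of 0.06 for 92 nuclear genes, 0.05 for 13 mitochondrially encoded genes and -0.01 for all genes. The genes called numbered 0 of 103 in stem-like (0.00964% of all genes tested), 0 of 103 in transit-amplifying-like (0.0179%), 0 of 104 in lower-villus (0%), 0 of 103 in mature enterocyte-like (0.0099%), 0 of 103 in goblet-like (0.00934%), 0 of 88 in Paneth-like (0%) and 0 of 100 in enteroendocrine-like cells (0%). At an unadjusted p of 0.05 there were 3 across these 7 classes, 1 each in stem-like, lower-villus and mature enterocyte-like cells, where 332 of 10372, 405 of 10762 and 421 of 10098 genes passed it. They were Ndufaf2 in stem-like cells (0.29 ± 0.13, log2, SE), Cox6b2 in lower-villus enterocyte-like cells (-0.53 ± 0.18) and Ndufs1, a core subunit of complex I, in mature enterocyte-like cells (0.35 ± 0.15). Their adjusted p-values in edgeR's quasi-likelihood test were 0.968, 0.927 and 0.921. DESeq2 gave 1 at an unadjusted p of 0.05, in lower-villus enterocyte-like cells.

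**Figure D4:**
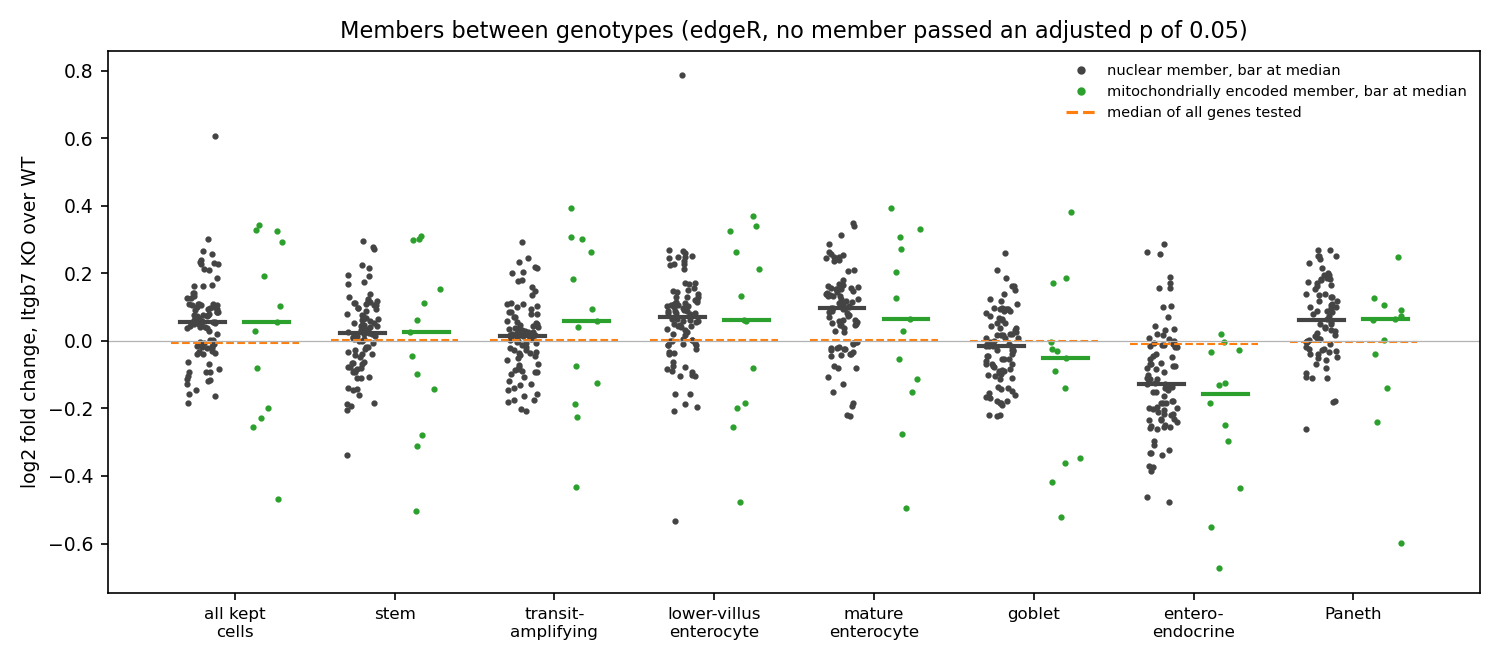
EdgeR log2 fold change between genotypes, Itgb7 KO divided by wild-type, (vertical axis) for each gene that passed the filter, in all kept cells and 7 classes (horizontal axis); dark points are nuclear and green points mitochondrially encoded genes, bars are their medians and dashed lines the median of all genes tested. Nuclear medians lie between -0.13 and 0.10, and 0 of the genes shown passed an adjusted p of 0.05.

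The 2 nuclear subunits of each complex with the most UMIs are given in all kept cells. For complex I, Ndufb9 measured 745, 867 and 831 CPM in wild-type replicates 1, 2 and 3 and 792, 937 and 880.0 CPM in the libraries labelled Itgb7 KO. Ndufa13, which is also known as a cell death regulator, measured 567, 649 and 645 CPM in wild-type replicates 1, 2 and 3 and 611, 729 and 714 CPM in the libraries labelled Itgb7 KO. The ranges of the groups overlapped for both (log2 fold changes 0.06 ± 0.12 and 0.11 ± 0.12, SE). For complex II, Sdhb measured 504, 621 and 565 CPM in wild-type replicates 1, 2 and 3 and 539.9, 761 and 735 CPM in the libraries labelled Itgb7 KO. Sdhd measured 322, 458 and 392 CPM in wild-type replicates 1, 2 and 3 and 331, 538 and 524 CPM in the libraries labelled Itgb7 KO. Both were lowest in wild-type replicate 1 and highest in replicate 2 labelled Itgb7 KO, with overlapping groups (0.23 ± 0.13 and 0.21 ± 0.17). For complex III, Uqcrq measured 1203, 1448 and 1733 CPM in wild-type replicates 1, 2 and 3 and 1655, 1523 and 1592 CPM in the libraries labelled Itgb7 KO. Uqcr11 measured 1164, 1470.1 and 1397 CPM in wild-type replicates 1, 2 and 3 and 1189.6, 1670.1 and 1843 CPM in the libraries labelled Itgb7 KO. Both are small membrane subunits, and their groups overlapped (0.11 ± 0.15 and 0.19 ± 0.15).

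For complex IV, Cox4i1, the regulatory subunit that binds adenine nucleotides, measured 2301, 2864 and 2774 CPM in wild-type replicates 1, 2 and 3 and 2367, 2801 and 2839 CPM in the libraries labelled Itgb7 KO. Cox8a measured 1949, 2154 and 2541 CPM in wild-type replicates 1, 2 and 3 and 1972, 2119 and 2104 CPM in the libraries labelled Itgb7 KO. Both had overlapping groups (-0.02 ± 0.11 and -0.13 ± 0.13). For complex V, Atp5b, the catalytic β subunit, measured 1802, 2353 and 1973 CPM in wild-type replicates 1, 2 and 3 and 1928, 2548 and 2035 CPM in the libraries labelled Itgb7 KO. Atp5g1 measured 1547, 1908 and 2041 CPM in wild-type replicates 1, 2 and 3 and 1735, 1934 and 1906 CPM in the libraries labelled Itgb7 KO. Their fold changes were 0.05 ± 0.13 and -0.00 ± 0.12. All 10 of these genes had their lowest value in wild-type replicate 1, and 0 separated the genotypes.

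Groups that do not overlap were rare. Among the 103 genes with a mean of at least 10 CPM in all kept cells, 4 were higher in all 3 libraries labelled Itgb7 KO (1.78% of all genes at that level) and 1 was lower (1.27%). Ndufa11 measured 372, 408 and 415.2 CPM in wild-type replicates 1, 2 and 3 and 415.3, 469 and 466 CPM in the libraries labelled Itgb7 KO. The groups are separated by 1 near-tie (log2 fold change 0.14 ± 0.12, SE). Atp5l, a membrane subunit of the ATP synthase, measured 1389, 1353 and 1437 CPM in wild-type replicates 1, 2 and 3 and 1477, 1487 and 1581 CPM in the libraries labelled Itgb7 KO. Ndufb6 and Ndufs6 of complex I measured 355, 362 and 368 CPM in wild-type replicates 1, 2 and 3 and 408, 385 and 375 CPM in the libraries labelled Itgb7 KO, and 504, 559 and 541 CPM in wild-type replicates 1, 2 and 3 and 568, 566 and 580.4 CPM in the libraries labelled Itgb7 KO. The fold changes of these 3 were 0.09 ± 0.14, 0.08 ± 0.15 and 0.07 ± 0.13, and without replicate 1 labelled Itgb7 KO those of Ndufb6 and Ndufs6 were -0.03 and -0.0008. The lower gene, Ndufaf5, an assembly factor that modifies a complex I subunit, measured 16.8, 17.0 and 17.6 CPM in wild-type replicates 1, 2 and 3 and 15.8, 15.009 and 16.4 CPM in the libraries labelled Itgb7 KO. Its fold change was -0.16 ± 0.14, and its groups were close to touching. Adjusted p-values of the 5 in edgeR's quasi-likelihood test ran from 0.951 to 0.971.

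Within stem-like and mature enterocyte-like cells more genes separated, mostly toward higher levels in Itgb7 KO libraries. In mature enterocyte-like cells 11 of 102 were higher without overlap (3.87% of all genes) and 2 lower (5.15%). The 11 were Atp5j, Ndufa9, Ndufa11, Ndufa12, Ndufa13, Ndufab1, Ndufs1, Sdhb and Uqcrc1 and the assembly factors Ndufaf1 and Ndufaf7, and the lower ones were Cox7a2l and Sdhaf1. In stem-like cells 10 of 103 were higher (3.29%) and 2 lower (3.72%). Transit-amplifying-like cells had 4 higher (3.59%) and 2 lower (2.87%), lower-villus enterocyte-like cells 5 (3.01%) and 2 (4.49%), goblet-like cells 3 (2.49%) and 1 (3.15%), and enteroendocrine-like cells 2 (2.88%) and 0 (2.46%). Sdhb was among the higher ones in mature enterocyte-like, stem-like and transit-amplifying-like cells. It measured 482, 497 and 456 CPM in stem-like cells of wild-type and 513, 604 and 577 CPM of Itgb7 KO libraries, and 774, 828 and 729 CPM and 836, 974 and 921 CPM in mature enterocyte-like cells. None of these was called by edgeR.

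The mitochondrially encoded genes were compared by their share of the 13 genes' UMIs, which does not depend on their sum. mt-Co1 took 14.9, 17.2 and 17.4% in wild-type replicates 1, 2 and 3 and 13.9, 18.2 and 20.05% in the libraries labelled Itgb7 KO. mt-Co2 took 10.0, 4.59 and 6.25% in wild-type replicates 1, 2 and 3 and 10.3, 3.75 and 3.40% in the libraries labelled Itgb7 KO. mt-Co3 took 20.9, 24.98 and 22.4% in wild-type replicates 1, 2 and 3 and 20.8, 27.6 and 26.1% in the libraries labelled Itgb7 KO. These 3 genes encode the catalytic core of complex IV, and mt-Co2 was higher and mt-Co3 lower in replicate 1 of both genotypes than in all other libraries. mt-Atp6, the proton channel subunit of complex V, took 22.6, 16.9 and 17.3% in wild-type replicates 1, 2 and 3 and 23.1, 14.3 and 15.9% in the libraries labelled Itgb7 KO. mt-Atp8 took 0.203, 0.294 and 0.531% in wild-type replicates 1, 2 and 3 and 0.160, 0.350 and 0.244% in the libraries labelled Itgb7 KO. mt-Atp6 shares the pattern of mt-Co2. mt-Cytb of complex III took 11.3, 15.1 and 12.9% in wild-type replicates 1, 2 and 3 and 11.1, 16.0 and 15.7% in the libraries labelled Itgb7 KO, lower in replicate 1 of both genotypes.

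The complex I genes differed widely in share. mt-Nd1 took 9.29, 11.8 and 11.7% in wild-type replicates 1, 2 and 3 and 9.55, 11.5 and 11.4% in the libraries labelled Itgb7 KO. mt-Nd2 took 2.90, 1.73 and 2.63% in wild-type replicates 1, 2 and 3 and 3.04, 1.26 and 1.04% in the libraries labelled Itgb7 KO. Replicate 1 of both genotypes was lowest for mt-Nd1 and highest for mt-Nd2. mt-Nd3 took 0.979, 0.376 and 0.875% in wild-type replicates 1, 2 and 3 and 0.889, 0.255 and 0.260% in the libraries labelled Itgb7 KO. mt-Nd4 took 6.06, 6.32 and 6.72% in wild-type replicates 1, 2 and 3 and 6.24, 5.87 and 5.20% in the libraries labelled Itgb7 KO. mt-Nd2 and mt-Nd3 were low in wild-type replicate 2 and in replicates 2 and 3 labelled Itgb7 KO, while mt-Nd4 was nearly even. mt-Nd4l took 0.313, 0.335 and 0.481% in wild-type replicates 1, 2 and 3 and 0.296, 0.376 and 0.322% in the libraries labelled Itgb7 KO. mt-Nd5 took 0.590, 0.449 and 0.711% in wild-type replicates 1, 2 and 3 and 0.572, 0.412 and 0.342% in the libraries labelled Itgb7 KO. mt-Nd6, the only 1 of the 13 on the opposite strand, where it overlaps mt-Nd5, took 0.0166, 0.0241 and 0.0441% in wild-type replicates 1, 2 and 3 and 0.0120, 0.0422 and 0.0372% in the libraries labelled Itgb7 KO. The groups of all 13 genes overlapped (exact 2-sided permutation tests, p = 0.2 to 1, adjusted p = 0.758 to 1 over 13 genes). For 11 of the 13 genes, all but mt-Nd4 and mt-Nd5, the pair of replicate 1 libraries stood on 1 side of the other 4, whichever the genotype.

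**Figure D5:**
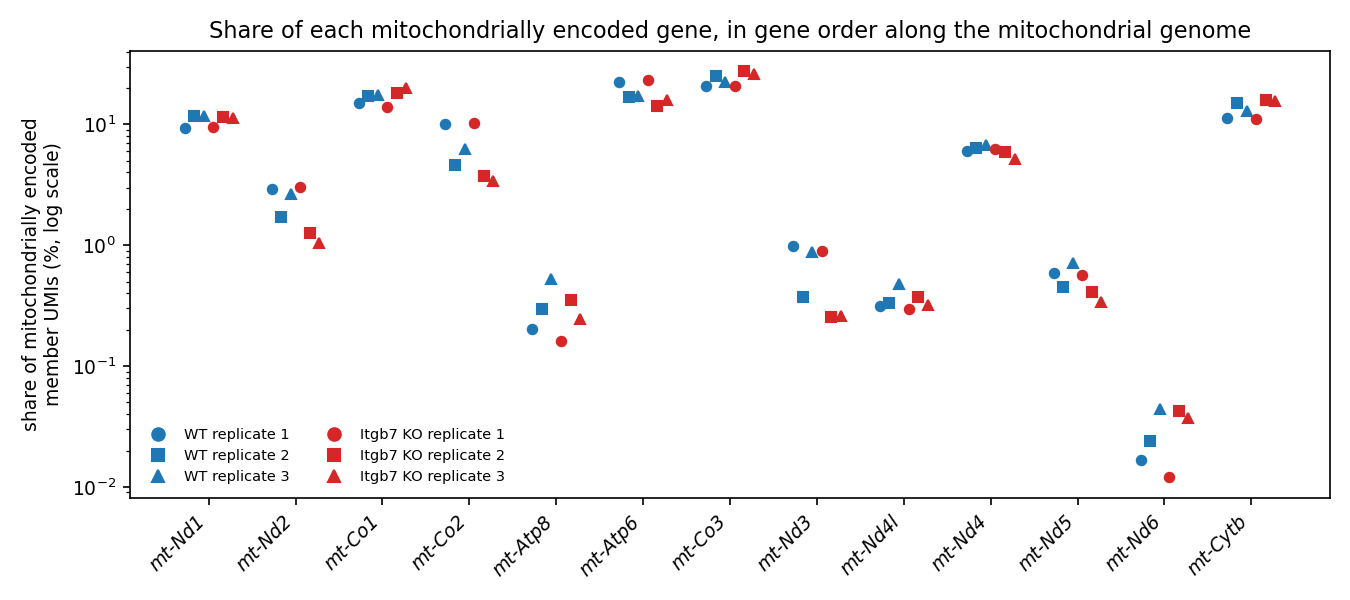
Share of each mitochondrially encoded gene in the UMIs of all 13 (vertical axis, percent, log scale), in gene order (horizontal axis); each symbol is 1 library. Circles, replicate 1 of both genotypes, lie together and apart from the other libraries for mt-Co2 (10.0% and 10.3% against at most 6.25%) and mt-Atp6 (22.6% and 23.1% against at most 17.3%).

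Per barcode, before any filter, the median share of mitochondrial UMIs was 3.72%, 4.15% and 3.46% in wild-type replicates and 3.84%, 4.05% and 5.11% in the libraries labelled Itgb7 KO. The groups overlap (exact 2-sided permutation test, p = 0.3, adjusted p = 0.5 over 2 values). The share of barcodes above 25% was 0%, 0.217% and 0.136% in wild-type and 0.215%, 0.122% and 1.64% in Itgb7 KO libraries, and only replicate 3 labelled Itgb7 KO stood high (exact 2-sided permutation test, p = 0.5, adjusted p = 0.5). The 13 mitochondrially encoded genes set this limit, so their sums in kept cells follow a filter made on the same genes.

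The genes beside the respiratory chain were also without a call between genotypes. In all kept cells edgeR called 0 of the tested genes of every list, with 0 at an unadjusted p of 0.05. Median log2 fold changes were 0.04 for the citrate cycle, 0.03 for mitochondrial transcription and replication, -0.02 for the regulators, 0.05 for carriers and coenzyme Q, 0.06 for the other assembly factors, 0.12 for the ATP synthase parts outside the rule, 0.01 for the mitochondrial ribosome and 0.00 for glycolysis, beside -0.01 for all genes.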

How the data were processed

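For 3 wild-type libraries and 3 labelled Itgb7 KO the authors deposited raw UMI counts, whole numbers for each gene in each barcode. The mm10 build, Cell Ranger 2.1.1, Seurat and bcl2fastq 2.17.1.14 are named, per the submitters' processing notes; whether counting used strand is not given in the sources used here, and 43 of the 96 nuclear genes overlap another annotated gene. Reads shared with pseudogene copies were not tested.

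Barcodes needed 500 genes, 1000 UMIs and at most 25% mitochondrial UMIs (107 exceeded that, 3 failed the others). The highest Scrublet scores (0.8% per 1000 barcodes, 969 in all) were removed, because the automatic threshold marked under 0.5% of barcodes in most libraries. Cells were scaled to 10000 UMIs, and 2000 variable genes, without the respiratory chain genes, and 30 components were corrected for library and clustered with scanpy 1.11.5 (Leiden, resolution 1.5, 15 neighbours). A cluster took a class's name where its 10 genes of highest fold held more markers of that class than of any other and the top 50 held 3 or more.

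Sums of UMI counts over a class in a library (at least 20 cells) were fitted over all genes with edgeR 4.0.16 (quasi-likelihood, TMM, filterByExpr, genotype only, Benjamini-Hochberg at 0.05). DESeq2 1.42.0, other scalings, filters, clusterings and left-out libraries were alternatives. Log2 ratios between classes were taken within a library on CPM + 0.01 and averaged over libraries. On simulated data the edgeR fit of all kept cells recovered 93% of 100 genes changed by 1 on the log2 scale, that of stem-like cells 81% and that of mature enterocyte-like cells 77%; of 100 genes changed by 2, each recovered 100%. Of the calls 5.39%, 6.70% and 4.32% were false. The simulated counts had the same spread for all genes and no difference between replicates, and no change below 1 was simulated. These rates thus do not give the power for the smaller genotype differences reported here. Sums were tested by exact permutation over libraries (smallest p 0.1). Deviations from group means correlated between libraries of the same replicate number (0.85, 0.56 and 0.46 over 7187 genes). Only the replicate 1 libraries were set apart as a pair by this. Wild-type replicate 2 correlated more with replicate 3 labelled Itgb7 KO (0.73). Wild-type replicate 3 correlated nearly as much with replicate 2 labelled Itgb7 KO (0.43). No label names a shared batch.

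Genes with values in every library were chosen by rule: the 13 mitochondrially encoded genes, the 2 nuclear subunits of each complex with the most UMIs, genes without overlap, the 5 highest and 5 lowest nuclear genes of mature enterocyte-like over stem-like cells, and isoform pairs. The genes and lists were chosen with earlier results of these data known. Positions are from GENCODE (GRCm38) and promoters from RefSeq.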

Additional observations from a re-analysis of the deposited data

How the results depend on the processing

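In all 8 cell groups 0 of the respiratory chain genes were called in any alternative run, including DESeq2 and each library left out. Under the replicate block 0 of them were called, beside 2 of all genes in all kept and 8 in Paneth-like cells. In every cell group but Paneth-like, the block raised their number at an unadjusted p of 0.05 in edgeR's test. In enteroendocrine-like cells they went from 0 to 8 of 100, beside 100 to 580 of all genes. In stem-like cells they went from 1 to 5 of 103, beside 332 to 715 of all genes. Over all genes DESeq2 called 25 in all kept cells, 5 in stem-like, 12 in lower-villus and 6 in mature enterocyte-like and 20 in goblet-like cells, where edgeR called 1, 1, 0, 1 and 1. Without replicate 1 labelled Itgb7 KO, 17 of the genes had an unadjusted p under 0.05 in all kept cells, as did 2540 of all genes, against 420 with all libraries. Of 918 values under alternatives 876 kept direction within a set tolerance of the main value, 40 reversed and 2 moved. The 876 include counts of calls that stayed at 0. The tolerance was wide. With each library left out in turn, the log2 genotype difference of the ratio in all kept cells ranged from -0.240 to -0.0748, against -0.165 with all. With only cells of at least 13621 UMIs, which removed replicate 3 labelled Itgb7 KO from every comparison, the genotype difference of the nuclear sum was -0.0189 in lower-villus, -0.00305 in mature enterocyte-like and 0.0827 in goblet-like cells, that of the nuclear complex IV sum -0.0355, and the log2 difference of Atp5g1 between mature enterocyte-like and stem-like cells 0.324. The genotype difference of the ratio was -0.0599 in Paneth-like cells with the genes allowed in the clustering, and 0.0247 in enteroendocrine-like cells with a mitochondrial limit of 10%. With the median of other genes at 0, 26 subunits were higher in transit-amplifying-like cells. The cause of these changes was not tested. The alternatives of the class levels were chosen after seeing the data. The clustering with the genes gave no mature enterocyte-like class, and the depth limit left too few Paneth-like and enteroendocrine-like cells, so these were not run.

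With each library left out in turn, differences that reversed ranged as follows (log2 Itgb7 KO over wild-type). The nuclear sum ranged from -0.00898 to 0.121 in all kept cells, -0.0249 to 0.0432 in transit-amplifying-like, -0.181 to 0.0972 in enteroendocrine-like and -0.514 to 0.0925 in Paneth-like cells. The mitochondrially encoded sum ranged from -0.00551 to 0.205 in goblet-like and -0.225 to 0.172 in enteroendocrine-like cells. The ratio ranged from -0.142 to 0.0434 in enteroendocrine-like and -0.127 to 0.154 in Paneth-like cells. Complex sums ranged from -0.0632 to 0.0766 (complex IV, nuclear), -0.0288 to 0.0737 (complex V, nuclear) and -0.0111 to 0.289 (complex V, mitochondrially encoded). Ndufb6 ranged from -0.033 to 0.167 and Ndufs6 from -0.000801 to 0.126. Shares in percentage points ranged from -3.83 to 0.669 (mt-Atp6), -0.161 to 0.00261 (mt-Atp8), -0.404 to 2.66 (mt-Co1), -3.38 to 0.389 (mt-Co2), -0.941 to 0.501 (mt-Nd1), -0.0769 to 0.00745 (mt-Nd4l) and -0.00364 to 0.0114 (mt-Nd6). The interval of any genotype difference is set by 3 libraries a group.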
